A study of Mus musculus with 12 samples.

Results

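The 33 genes described here encode the machinery that breaks down fatty acids in mitochondria and peroxisomes. They were chosen by gene symbol for their role, and all 33 were found among the 55487 genes of the expression table, each under a single row. They comprise 4 genes of the carnitine shuttle, 4 acyl-CoA dehydrogenases, 6 enzymes of the later steps of mitochondrial β-oxidation, 3 auxiliary enzymes for unsaturated fatty acids, 3 genes of electron transfer from the dehydrogenases, 4 of peroxisomal β-oxidation with catalase, 7 peroxins and 2 peroxisomal ABC transporters. Of these, 32 reached 1 TPM in at least 2 of the 12 libraries and were tested. The remaining gene, Ehhadh, which encodes the peroxisomal bifunctional enzyme, was listed at 0 in 11 libraries and at 0.0716 TPM in the other.

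The libraries are input RNA-seq of 3T3-L1, a line of mouse fibroblasts from which adipocyte-like cells form after induction with IBMX, dexamethasone and insulin (MDI). The cells carried a lentiviral hairpin against Fto, which encodes an m6A RNA demethylase (shFto), or a scrambled control hairpin (shScram), and had been selected with puromycin. Both lines were collected as preadipocytes (Pre), at the mitotic clonal expansion stage (MCE) and at the end of differentiation (Diff, labelled mature adipocytes), with 2 libraries in each of the 6 groups. Which of the Fto hairpins the sequenced line carried is not named in the methods, and the labels do not say whether the libraries of a group came from separate cultures, so the p-values measure the spread between libraries only. Values are TPM, which corrects for transcript length and library size, so levels of different genes can be compared but the sequencing depth is unknown. Differences are log2 fold changes of TPM + 1, tested with limma and Benjamini-Hochberg adjustment over 15968 genes, and a gene is called changed at an adjusted p under 0.05. Errors after ± are SD with n = 2.

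Long-chain fatty acids enter the mitochondrial matrix as carnitine esters, made by CPT1 at the outer membrane, carried across the inner membrane by SLC25A20 and turned back into acyl-CoA by CPT2. Inside, dehydrogenases of differing chain-length preference start each round of β-oxidation and pass electrons through the electron transfer flavoprotein to the respiratory chain. Very long-chain and branched fatty acids are first shortened in peroxisomes, whose oxidases make hydrogen peroxide that catalase removes, and peroxins build the organelle and import its enzymes. In adipocytes many of these genes are known targets of PPARγ, the main transcription factor of fat cell formation.

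Fto was at 52.7 to 73.5 TPM in the 6 shScram libraries and at 5.51 to 7.47 TPM in the 6 shFto libraries. Replicate 1 of shScram at Diff, whose title names the control hairpin while its treatment entry names the knockdown, was among the former, and the member that differed most from its replicate was Pex16, by 1.25-fold. Replicate 1 of shScram preadipocytes stood apart. It differed from replicate 2 by more than 1.5-fold in 14 of the 32 members tested and by 5.04-fold in Pex16, whereas no member differed by 1.5-fold between the libraries of any other group. The gap between these libraries enters the shared estimate of spread, so most counts are also given without replicate 1. Adipocyte markers (10 genes, Adipoq, Fabp4 and Plin1 among them) summed to 1420.2 to 1436 TPM in shScram and 413 to 451 TPM in shFto cells at Diff, and all 10 had a mean of at least 1 TPM in the former, whereas 3 were under 1 TPM in the latter. Adipoq, for instance, was at 77.2 and 72.4 TPM in shScram cells against 6.05 and 3.66 TPM in shFto cells, so Diff is used as the name of a stage. Preadipocyte and fibroblast markers (8 genes) summed to 8405 to 8657 TPM in shScram and 9755 to 10244 TPM in shFto cells at that stage, but not all in the same direction, with Ly6a at 135 and 114 TPM in shScram cells against 793 and 820.3 TPM in shFto cells and Vim at 4155 and 4072 TPM and 2094 and 2238 TPM. Brown adipocyte markers (5 genes) summed to 24.8 to 26.6 TPM in shFto and 3.36 to 3.72 TPM in shScram cells at Diff. In shFto cells this was mostly Dio2 (23.3 and 25.1 TPM against 0.745 and 0.499 TPM in shScram cells). Ppargc1a went the other way, at 1.43 and 1.45 TPM in shFto cells against 2.44 and 2.86 TPM in shScram cells. Cidea was at 0 and 0.108 TPM against 0.541 and 0 TPM, while Ucp1 and Prdm16 were at 0 in both lines. Of the macrophage markers, Adgre1 was at 0 in every library and Ptprc at 0 in the shFto libraries, while the sum over the 5 markers, mostly Cd14, was 41.1 to 43.5 TPM in shFto and 6.77 to 7.74 TPM in shScram cells at Diff. Skeletal muscle and hepatocyte markers summed to less than 1 TPM in every library.

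Summed over the 33 genes, control cells reached a higher level at each later stage, while knockdown cells stayed close to their starting level. The sums were 1438 and 1791 TPM in shScram preadipocytes, 2159 and 2077 TPM at MCE and 2993 and 2801 TPM at Diff. In shFto cells they were 1705 and 1717 TPM, 1781 and 1819 TPM and 1881 and 1889 TPM. The shScram libraries at Diff thus lay above every other library, and the shFto libraries at Diff lay below the shScram libraries of MCE. Among the roles the gap at Diff was widest for the acyl-CoA dehydrogenases. Their sums were 676 and 639 TPM in shScram cells against 333 and 319 TPM in shFto cells. Most of this gap was that of Acadm alone, at 338 and 324 TPM against 73.7 and 81.7 TPM. The peroxins summed to 291 and 271 TPM and 220.2 and 220.02 TPM. These are bulk libraries, in which fewer cells of a type and less RNA per cell cannot be told apart, and the part of the adipocyte, brown adipocyte, fibroblast and macrophage marker levels given above in these differences was not tested.

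**Figure D1:**
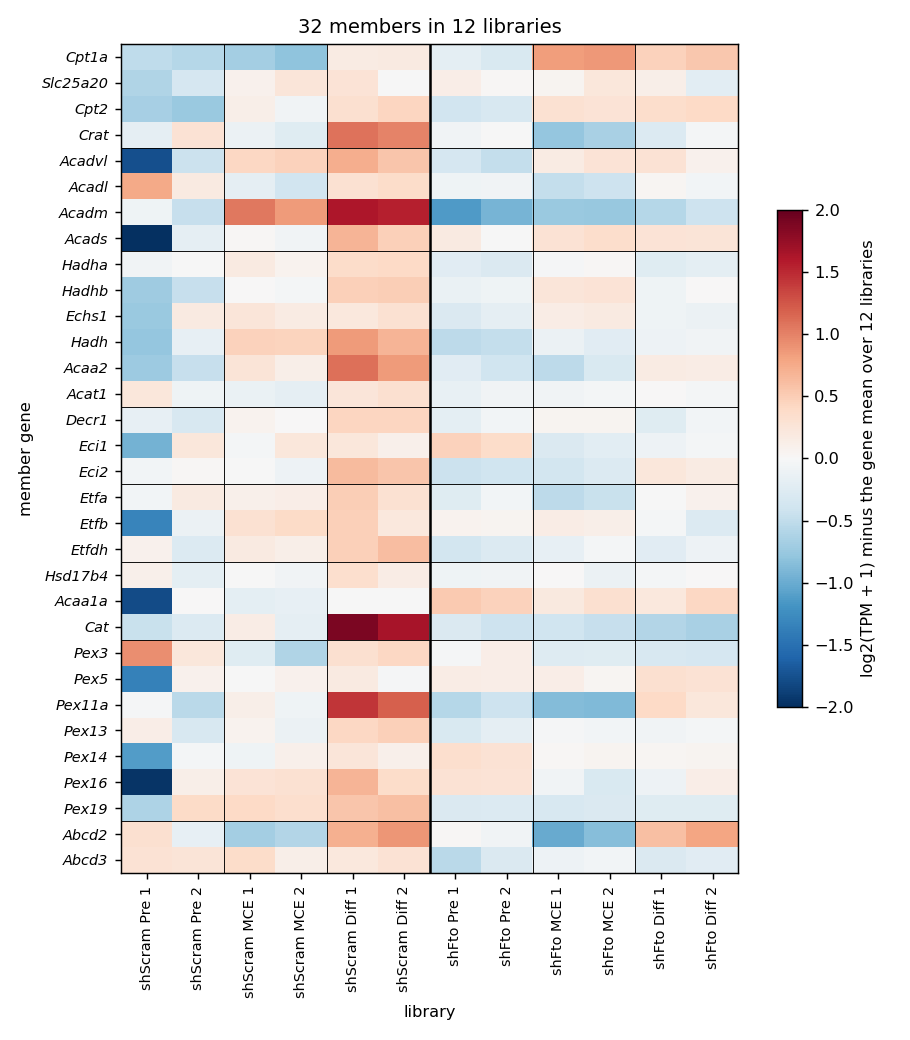
Level of the 32 members tested (rows, grouped by role) in the 12 libraries (columns), as log2(TPM + 1) minus the mean of the gene over all libraries, with the colour scale ending at -2 and 2. The shScram libraries at Diff are red in most rows, Acadm is blue in all 6 shFto libraries, and replicate 1 of shScram preadipocytes departs from its replicate in many rows.

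The comparison at Diff asks how the shFto line differed from the shScram line at the end of differentiation. At this stage 12 of the 32 members tested were lower in shFto cells and 0 were higher, where 9.31% of all genes tested were lower and 11.9% higher by limma. At an unadjusted p under 0.05, 17 members were lower (15.5% of all genes) and 1, Cpt1a, was higher (18% of all genes). The median log2 fold change was -0.48 over the members and 0.03 over all genes. Both shFto libraries lay below both shScram libraries for 26 of the 32 members, against 34% of all genes, and above them for 3 (Cpt1a, Acaa1a and Pex5), against 39%. Without replicate 1 of shScram preadipocytes 24 members were lower (20.4% of all genes) and these 3 were higher (25.3% of all genes), and the counts were the same without replicate 2. Leaving out any library of the Diff stage left 6 or 7 lower, for instance 6 without replicate 1 of shScram, where 4.62% of all genes were lower.

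Catalase and medium-chain acyl-CoA dehydrogenase fell the most. Cat (ENSMUSG00000027187, chr2:103453849-103485160 of GRCm38), the peroxisomal enzyme that breaks down hydrogen peroxide, was at 225 and 191 TPM in shScram cells against 39.6 and 37.97 TPM in shFto cells (log2 fold change -2.39 with an SE of 0.15, adjusted p = 1.22e-05). The shFto libraries at Diff had the lowest Cat levels of all 12 libraries, below the lowest preadipocyte library (43.6 TPM). Acadm (ENSMUSG00000062908, chr3:153922357-153944632), which starts the oxidation of medium-chain fatty acids, was at 338 and 324 TPM in shScram cells, the highest mean of all members in that group. In shFto cells Acadm was at 73.7 and 81.7 TPM (log2 fold change -2.08 with an SE of 0.15, adjusted p = 3.24e-05). These levels lay below the shScram libraries of MCE and Diff and overlapped those of shScram preadipocytes. Neither gene overlaps another annotated gene, and both calls held in each of 19 alternative settings.

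Within the carnitine shuttle, the members differed from one another. Crat (chr2:30400471-30415813), which encodes carnitine O-acetyltransferase, an enzyme of short-chain acyl groups in mitochondria and peroxisomes, fell from 89.6 and 84.4 TPM in shScram to 34.4 and 40.7 TPM in shFto cells (log2 fold change -1.20 with an SE of 0.17, adjusted p = 0.00127). Crat overlaps Dolpp1 and Gm16323 on the opposite strand, and as no strand setting is stated for the quantification, its level is uncertain. Cpt1a (chr19:3322334-3385733), the liver-type enzyme of the rate-limiting entry step, was at 53.7 and 54.7 TPM in shScram cells against 66.9 and 70.2 TPM in shFto cells, without overlap (log2 fold change 0.33, adjusted p = 0.0534). Cpt2 was at 43.6 and 46.9 TPM and 44.2 and 46.2 TPM, and the 95% interval of its log2 difference was -0.26 to 0.26. The carrier gene Slc25a20 was at 17.98 and 14.6 TPM and 15.98 and 12.6 TPM, with an interval of -0.57 to 0.21. Crat thus ended lower in shFto cells, whereas the enzymes that carry long-chain groups into the matrix did not pass the threshold in either direction.

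Of the 4 acyl-CoA dehydrogenases, Acadm was the only gene called. Acadvl, for very long chains, was at 156 and 139 TPM in shScram cells against 115 and 99.4 TPM in shFto cells (log2 fold change -0.46, adjusted p = 0.391). Acadl, for long chains, was at 109.9 and 114 TPM and 90.7 and 85.2 TPM (-0.35, adjusted p = 0.211). Acads, for short chains, was at 71.3 and 61.96 TPM and 53.3 and 52.9 TPM (-0.32, adjusted p = 0.718). All 3 had both shFto libraries below both shScram libraries, and all 3 were called lower without replicate 1 of shScram preadipocytes. The interval for Acadm (-2.42 to -1.74) did not reach those of Acadvl (-1.23 to 0.31), Acadl (-0.75 to 0.06) and Acads (-1.47 to 0.83).

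Among the 6 genes of the later steps, 4 fell. Hadha and Hadhb encode the α and β subunits of the mitochondrial trifunctional protein and lie head to head on chromosome 5, with 85 bases between the annotated genes (chr5:30118304-30155162 and chr5:30155248-30184593). Hadha was at 112 and 114 TPM in shScram cells against 72.9 and 75.4 TPM in shFto cells (log2 fold change -0.60, adjusted p = 0.00308). Hadhb was at 74.3 and 74.8 TPM and 50.1 and 52.99 TPM (-0.52, adjusted p = 0.0124). The subunits thus fell by similar amounts at this stage. Hadh, the short-chain hydroxyacyl-CoA dehydrogenase, fell from 174 ± 15.00 to 96.2 ± 1.43 TPM (-0.85, adjusted p = 0.011), and Acaa2, a mitochondrial ketoacyl-CoA thiolase, from 119 ± 14.7 to 66.6 ± 0.676 TPM (-0.82, adjusted p = 0.0045). Echs1, the short-chain enoyl-CoA hydratase (89.2 ± 4.15 and 69.8 ± 1.13 TPM), and Acat1, the acetoacetyl-CoA thiolase (77.7 ± 2.63 and 62.98 ± 1.39 TPM), did not pass.

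Of the auxiliary enzymes that prepare the double bonds of unsaturated fatty acids, Decr1, a dienoyl-CoA reductase, fell from 45.4 and 45.1 to 27.9 and 31.9 TPM (log2 fold change -0.58, adjusted p = 0.00894). The isomerase gene Eci2 fell from 149 and 141 to 113 and 108 TPM (-0.40, adjusted p = 0.0244), while Eci1 was at 74.9 and 68.9 TPM in shScram cells against 59.5 and 62.1 TPM in shFto cells and did not pass. For electron transfer, Etfdh, the oxidoreductase that hands electrons to ubiquinone, fell from 62.2 and 69.1 to 37.9 and 41.4 TPM (-0.71, adjusted p = 0.00776). The flavoprotein subunit genes were lower in both shFto libraries but did not pass, with 174 ± 16.1 and 135 ± 5.69 TPM for Etfa (adjusted p = 0.0781) and 178 ± 23.2 and 125 ± 14.6 TPM for Etfb (adjusted p = 0.301).

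The peroxisomal members other than Cat moved less. Pex11a (chr7:79735957-79743131), a peroxin of peroxisome division, was at 33.5 and 28.4 TPM in shScram cells against 16.00 and 14.05 TPM in shFto cells (log2 fold change -0.99 with an SE of 0.19, adjusted p = 0.00634), and it overlaps Gm44706 on the opposite strand. Abcd3 (chr3:121758774-121815302), a peroxisomal membrane transporter of acyl-CoA, fell from 63.2 and 66.8 to 44.4 and 46.6 TPM (-0.50, adjusted p = 0.0235). The other 6 peroxins did not pass. Of these, Pex19, the receptor for membrane proteins, was at 58.7 and 60.9 TPM in shScram cells against 33.6 and 33.4 TPM in shFto cells (adjusted p = 0.0528), and Pex3, its docking partner, at 20.9 and 22.5 TPM and 13.1 and 12.9 TPM (adjusted p = 0.0548). Pex13, of the import pore, was at 30.1 and 31.3 TPM and 21.3 and 21.7 TPM (adjusted p = 0.0553), and all 3 were called lower without replicate 1 of shScram preadipocytes. The import receptor gene Pex5 was at 71.5 and 62.1 TPM and 79.4 and 77.2 TPM, and its docking partner gene Pex14 at 45.6 and 41.1 TPM and 39.4 and 39.9 TPM. Hsd17b4, the D-bifunctional protein of peroxisomal β-oxidation, was at 63.3 ± 5.73 and 52.8 ± 1.11 TPM. Acaa1a, a peroxisomal thiolase, was higher in both shFto libraries, with 86.7 and 86.8 TPM in shScram cells against 101 and 117 TPM in shFto cells (adjusted p = 0.666). Reads of Acaa1a could be shared with its near-identical paralog Acaa1b, and it overlaps Slc22a14 and Myd88 on the other strand, which leaves its level uncertain. The same holds, for overlap with an annotated gene on the opposite strand, for Hadha, Echs1, Eci2, Pex3, Pex13, Pex14 and Pex16, and on the same strand for Hadhb, Decr1, Hsd17b4 and Abcd3. Acadl and Etfdh overlap genes on both strands.

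**Figure D2:**
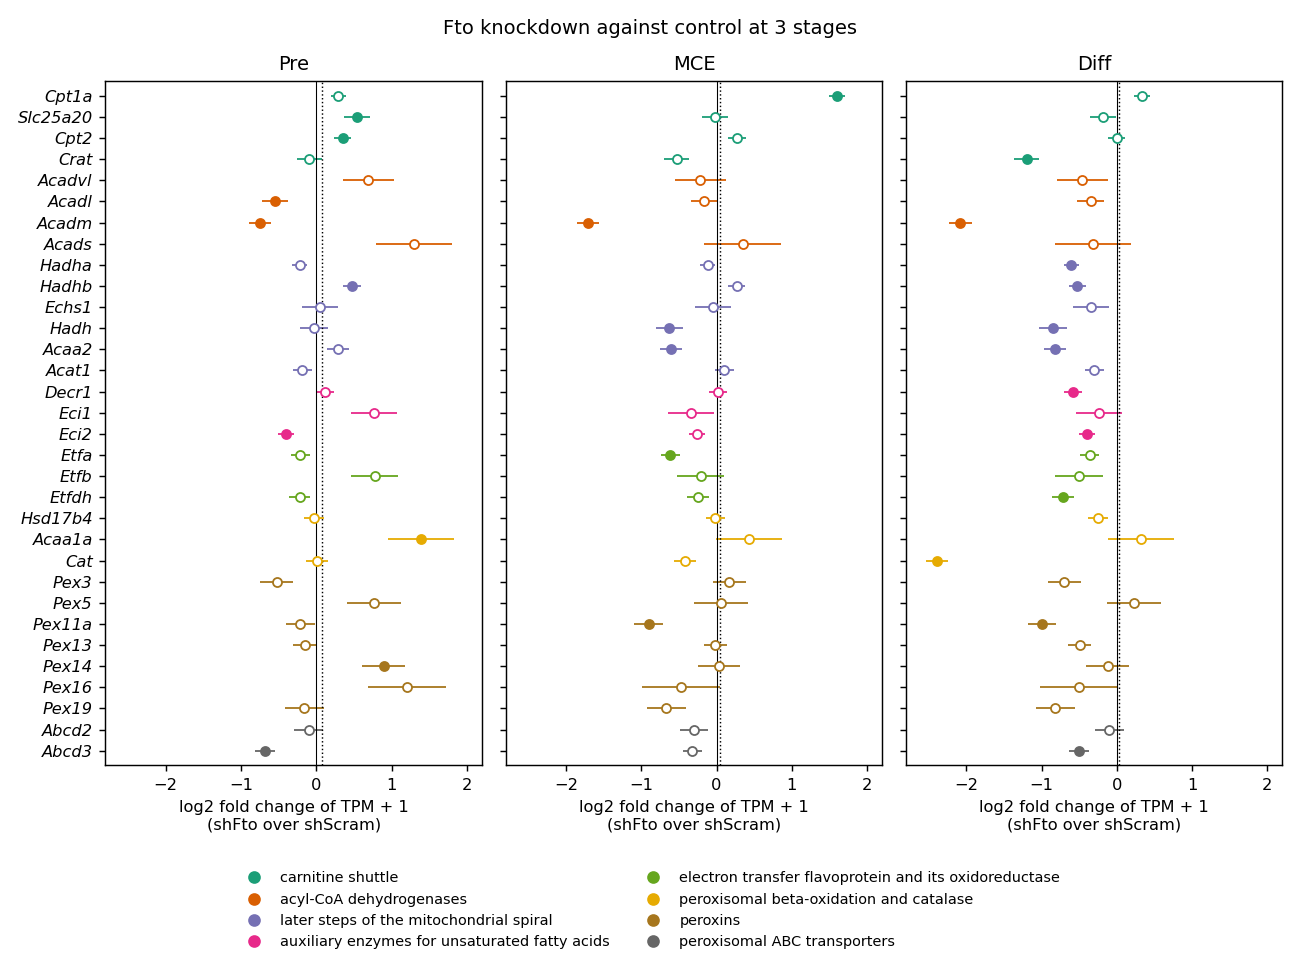
Log2 fold change of TPM + 1 between shFto and shScram cells at the 3 stages for the 32 members tested, with bars of 1 standard error and colours by role. Filled points are called at an adjusted p under 0.05, and the dotted line is the median of all genes. At Diff all but 3 points lie left of 0, with Cat at -2.39 and Acadm at -2.08 farthest, and at MCE Cpt1a lies at 1.60.

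At MCE the comparison between the lines gave fewer calls and a large difference in each direction. Of the 32 members tested, 5 were lower in shFto cells (7.26% of all genes) and 1 was higher (10.5% of all genes), with a median log2 fold change of -0.19 against 0.05 over all genes. Both shFto libraries lay below both shScram libraries for 18 members (30.3% of all genes) and above them for 6 (41.1% of all genes). Leaving out replicate 1 of shScram preadipocytes gave counts of 13 lower and 5 higher (15.8% and 25.2% of all genes). The counts were the same without replicate 2. With any library of the MCE stage left out, fewer members were lower, and the share of all genes lower fell too. By adjusted p the excess of lower members over all genes was then small or absent, while at an unadjusted p under 0.05 an excess remained.

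Cpt1a was the member called higher. It was at 29.5 and 27.2 TPM in shScram cells against 87.1 and 88.3 TPM in shFto cells at MCE (log2 fold change 1.60 with an SE of 0.11, adjusted p = 2.75e-05), and the shFto values were above those of every other group. Acadm was already lower, at 229 and 199 TPM in shScram cells against 64.9 and 64.4 TPM in shFto cells (log2 fold change -1.71 with an SE of 0.15, adjusted p = 0.000125). These calls held in each of 19 alternative settings. Pex11a was at 12.1 ± 1.30 TPM and 5.97 ± 0.0491 TPM (log2 fold change -0.90, adjusted p = 0.0115), and Etfa at 141 and 144 TPM and 90.6 and 95.8 TPM (-0.61, adjusted p = 0.0108). Hadh fell from 139.7 ± 0.630 to 90.1 ± 5.25 TPM (-0.63, adjusted p = 0.0439), and Acaa2 from 68.4 ± 4.65 to 44.8 ± 4.91 TPM (-0.60, adjusted p = 0.0217). The calls of Acaa2, Etfa and Pex11a were kept in 15, 15 and 16 of 19 settings and lost only on leaving out libraries of the MCE stage, whereas that of Hadh was kept in 6. Cat was at 66.8 and 53.1 TPM in shScram cells against 45.3 and 43.3 TPM in shFto cells without a call (-0.42, adjusted p = 0.0834). In the fit with median-ratio scaling Cat was called lower at this stage too (-0.48, limma adjusted p = 0.0371).

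In preadipocytes, before induction, the members split. Among the 32 tested, 5 were higher in shFto cells (15.9% of all genes) and 4 lower (12.3% of all genes), with a median of -0.01 against 0.08 over all genes, so the shares were close to those of all genes. With only the 4 preadipocyte libraries in the fit, 0 were called by limma in either direction (0% of all genes), against 0 higher and 2 lower at an unadjusted p under 0.05. In the fit without replicate 1 of shScram 5 were higher and 8 lower (16.1% and 12.9% of all genes), and without replicate 2 the counts were 16 and 9 (37.6% and 25.2% of all genes) and the median 0.20. Without replicate 1 or replicate 2 of shFto fewer members were called in each direction, and smaller shares of all genes. With any 1 of the 8 libraries of the later stages left out, fewer members were higher, and a smaller share of all genes. The drop was then larger among the members. Acadm was at 103 and 79.2 TPM in shScram cells against 49.6 and 57.2 TPM in shFto cells (log2 fold change -0.75 with an SE of 0.15, adjusted p = 0.00951), and it remained called without replicate 1 of shScram (-0.56). Abcd3 was at 66.8 and 65.4 TPM and 37.5 and 44.6 TPM (-0.68, adjusted p = 0.00772, and -0.66 without that library). Both genes were therefore lower in shFto cells at this stage. The highest log2 fold changes among called members were those of Acaa1a (chr9:119339676-119350299), at 24.5 and 87.1 TPM in shScram cells against 126 and 120.1 TPM in shFto cells (1.39, adjusted p = 0.0447), and Pex14 (chr4:148960535-149099876), at 17.1 and 37.2 TPM and 48.7 and 47.03 TPM (0.89, adjusted p = 0.0437). For these genes the shScram libraries differed widely. Without replicate 1 of shScram, Acaa1a was at 0.49 and Pex14 at 0.35. Acaa1a was called in 7 of 19 alternative settings and Pex14 in 6, and both calls were lost when any library other than a shScram preadipocyte library was left out. Acadl, Slc25a20, Cpt2, Hadhb and Eci2 were the other members called, with log2 fold changes of -0.55, 0.54, 0.35, 0.48 and -0.40. Of 19 alternative settings, Acadl was called in 2, Slc25a20 in 4, Cpt2 in 5, Hadhb in 16 and Eci2 in 16.

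**Figure D3:**
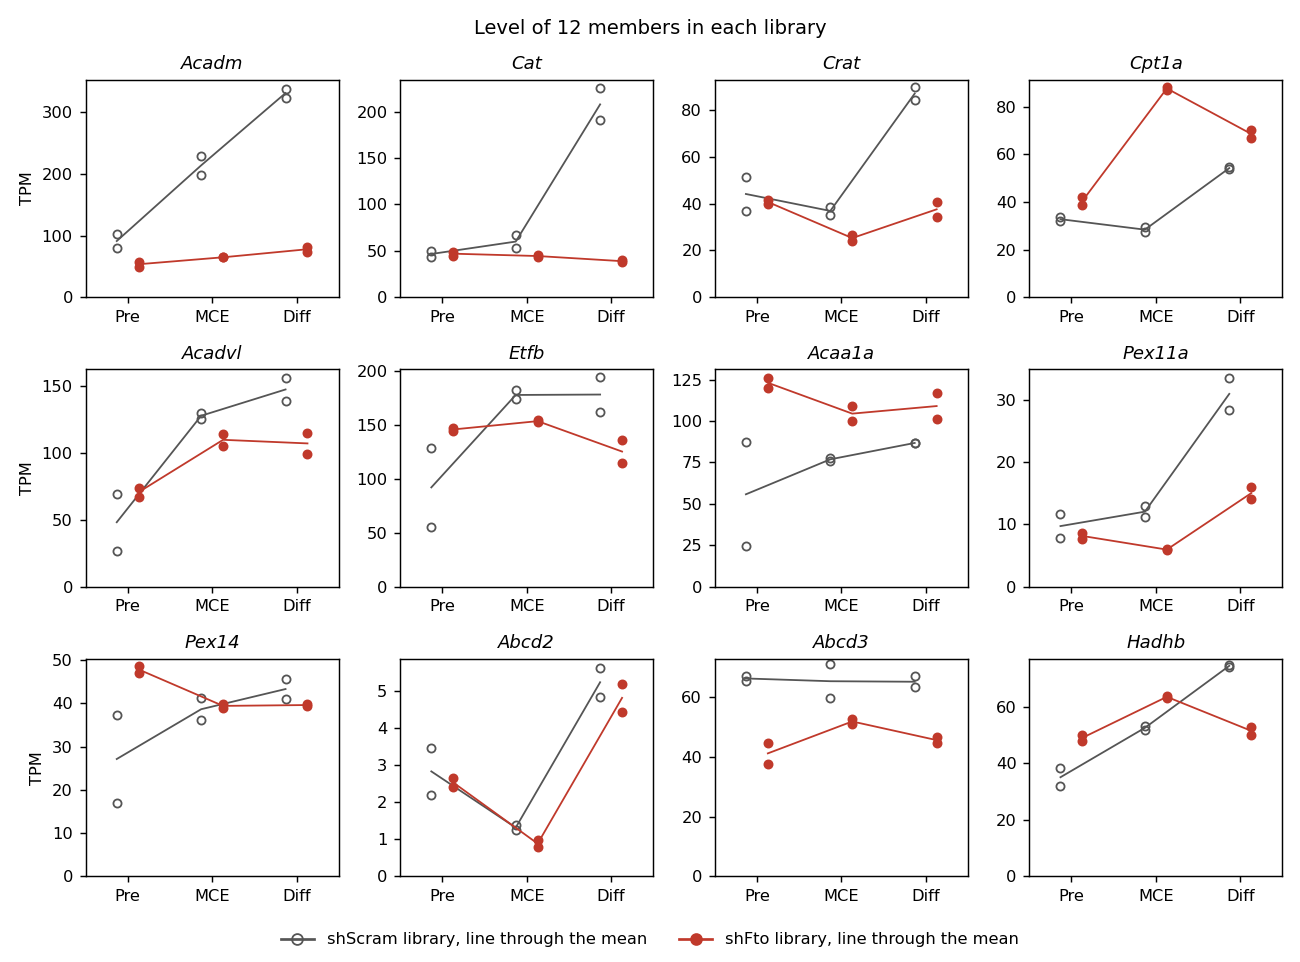
TPM of 12 members in each library at the 3 stages, with open grey circles for shScram, filled red circles for shFto and lines through the group means. Each vertical axis starts at 0. In shScram cells Acadm and Cat reach means of 331 and 208 TPM at Diff, against 77.7 and 38.8 TPM in shFto cells. Cpt1a is highest in shFto cells at MCE, and Abcd2 is lowest at MCE in both lines.

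The course of differentiation was then followed within each line, step by step. The comparisons share the MCE libraries, so their values are given side by side. TPM shifted as a whole between stages, with a median log2 change over all genes of -0.17 (shScram) and -0.18 (shFto) from Pre to MCE, and of 0.23 and 0.17 from MCE to Diff. These shifts were between -0.01 and 0.01 after median-ratio scaling, so counts are also given on that scale.

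From MCE to Diff, 13 of the 32 members rose in shScram cells (20% of all genes) and 0 fell (5.22% of all genes, and 0 members at an unadjusted p under 0.05). The median log2 change was 0.37 against 0.23 over all genes, and both libraries at Diff lay above both at MCE for 25 members (53.7% of all genes) and below them for 0 (21.4% of all genes). After scaling, the median was 0.11 and 7 members rose (11.7% of all genes). The count was 22 without replicate 1 of shScram preadipocytes, where 38.3% of all genes rose, and also 22 without replicate 2. It was 6 without replicate 2 of shScram MCE (7.55% of all genes) and 7 without replicate 1 or 2 of shScram Diff (10.7% and 8.33% of all genes). Cat had the highest log2 change, from 66.8 and 53.1 to 225 and 191 TPM (log2 fold change 1.78, adjusted p = 0.000115). Next came Abcd2 (chr15:91145871-91191799), a peroxisomal transporter of very long-chain acyl-CoA, from 1.25 and 1.39 to 4.86 and 5.63 TPM (1.43, adjusted p = 0.00121). Pex11a rose from 12.97 and 11.1 to 33.5 and 28.4 TPM (1.29, adjusted p = 0.00188) and Crat from 38.6 and 35.1 to 89.6 and 84.4 TPM (1.22, adjusted p = 0.00137). These 4 genes rose more than 2-fold, and all 4 also rose after scaling. Of the other peroxins, Pex3 rose (0.78, not called after scaling), while Pex13 (0.47), Pex5, Pex14, Pex16 and Pex19 (0.04, 0.16, 0.23 and 0.21) did not pass. Cpt1a rose from 29.5 and 27.2 to 53.7 and 54.7 TPM (0.91), Acaa2 by 0.78, Eci2 by 0.65 and Acadm by 0.63, of which Acadm was not called after scaling.

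In shFto cells, 6 members rose from MCE to Diff (20.2% of all genes) and 1 fell (6.48% of all genes), with a median of 0.04 against 0.17 over all genes. After scaling the split turned, with 2 members higher (15.2% of all genes) and 5 lower (12.8% of all genes) and a median of -0.17. When replicate 1 of shScram preadipocytes was left out, 9 rose and 5 fell (34.6% and 16.4% of all genes), with the same 9 and 5 without replicate 2. With any shFto library of MCE or Diff left out, fewer members rose, and a smaller share of all genes. The call of the member that fell, Cpt1a, was lost when any library other than a shScram preadipocyte library was left out. Abcd2 rose from 0.788 and 0.984 to 4.45 and 5.20 TPM (log2 fold change 1.63, adjusted p = 0.000526) and Pex11a from 5.97 ± 0.0491 to 15.02 ± 1.38 TPM (1.20, adjusted p = 0.00226). These are the 2 members that rose under either scale. Cpt1a fell from 87.1 and 88.3 to 66.9 and 70.2 TPM (-0.35, adjusted p = 0.0374). Cat went from 45.3 and 43.3 to 39.6 and 37.97 TPM (-0.19, adjusted p = 0.387), which did not pass.

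The difference between these late changes was tested as an interaction. It was called for 3 of the 32 members, all with a lower change in shFto cells (1.01% of all genes), and for 0 in the other direction (1.47% of all genes, and 0 members at an unadjusted p under 0.05). The count was 11 without replicate 1 of shScram preadipocytes (8.94% of all genes) and also without replicate 2. Cat differed by -1.97 on the log2 scale (standard error 0.21, limma adjusted p = 0.00246) and Cpt1a by -1.26 (standard error 0.15, adjusted p = 0.00347), and these held in each of 19 alternative settings. Hadhb went from 53.4 and 51.8 to 74.3 and 74.8 TPM in shScram and from 63.1 and 64.04 to 50.1 and 52.99 TPM in shFto cells, a difference of -0.79 (adjusted p = 0.0433) that was called in 6 of 19 settings. For Abcd2 and Pex11a the interval of the difference was -0.41 to 0.81 and -0.70 to 0.52, and for Acadm -0.85 to 0.11. Acadm was thus lower in shFto cells at both stages, without a call for its late change.

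**Figure D4:**
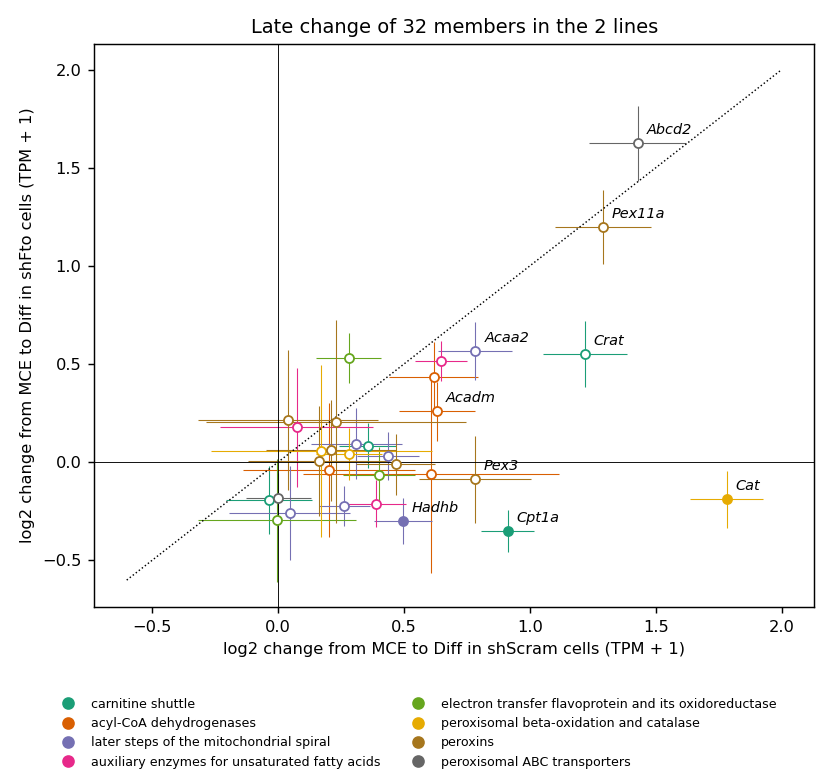
Log2 change of TPM + 1 from MCE to Diff in shScram cells (horizontal) and shFto cells (vertical) for the 32 members tested, with bars of 1 standard error and colours by role. The dotted line marks equal change, and filled points (Cat, Cpt1a and Hadhb) have a called difference between the lines. Abcd2 and Pex11a lie near the dotted line, and Cat lies at 1.78 and -0.19.

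At the early step, from Pre to MCE, 8 members rose in shScram cells (12.2% of all genes) and 3 fell (26.9% of all genes), with a median of 0.40 against -0.17 over all genes. With only the 4 libraries compared in the fit, 0 rose and 0 fell by limma (1.24% and 1.92% of all genes), against 6 and 1 at an unadjusted p under 0.05. The median was 0.14 without replicate 1 of shScram preadipocytes and 0.62 after scaling. After scaling 16 rose and 1 fell (20.2% and 17.7% of all genes). With replicate 1 of shScram preadipocytes left out more members rose, and also with replicate 2 of that group left out. Larger shares of all genes then rose and fell. Without replicate 2 of shScram MCE fewer members fell, and a smaller share of all genes. Acadm rose from 103 and 79.2 to 229 and 199 TPM (log2 fold change 1.23, adjusted p = 0.000365, and 1.42 without replicate 1). Acadvl (chr11:70010183-70015411) rose from 26.9 and 69.6 to 126 and 129.97 TPM (1.54, adjusted p = 0.00782, and 0.87 without replicate 1), and Etfb (chr7:43444083-43457800) from 55.3 and 129 to 174 and 182 TPM (1.06, adjusted p = 0.0259, and 0.46 without it). Acadvl overlaps Dvl2 and Mir324 on the opposite strand and Etfb overlaps 3 genes on its own strand, which leaves both uncertain. Pex3, Acadl and Abcd2 fell, with log2 fold changes of -0.997, -0.75 and -0.71, and the call of Abcd2 was lost without replicate 1.

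In shFto cells the early step gave 3 members that rose (8.8% of all genes) and 2 that fell (19.9% of all genes), with a median of 0.06 against -0.18 over all genes. After scaling the median was 0.29, 10 rose and 2 fell (14.3% and 14.1% of all genes), and without replicate 1 of shScram preadipocytes 9 rose and 9 fell (15.8% and 35.3% of all genes). The counts were again the same without replicate 2. Leaving out any 1 of the shFto libraries of Pre and MCE left fewer members that fell, and a smaller share of all genes. Cpt1a had the highest change, from 41.98 and 38.9 to 87.1 and 88.3 TPM (log2 fold change 1.10, adjusted p = 0.000104). It was followed by Cpt2 from 26.3 and 27.5 to 42.9 and 42.2 TPM (0.64) and Hadhb (0.37). The call of Hadhb was kept in 7 of 19 alternative settings, those of Cpt1a and Cpt2 in all 19. The members Cpt1a and Cpt2 thus rose at this step in shFto cells, while in shScram cells Cpt2 rose (0.72) and Cpt1a did not pass (-0.20). Abcd2 fell from 2.65 and 2.42 to 0.788 and 0.984 TPM (-0.91) and Crat from 39.8 and 41.6 to 24.02 and 26.5 TPM (-0.67). Acadm was at 49.6 and 57.2 TPM and 64.9 and 64.4 TPM and was not called (0.27, adjusted p = 0.214), and it was after scaling (0.51).

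Further genes of the same pathways were taken from lists of 27 fatty acid oxidation genes, 34 peroxisome genes and 18 genes of the tricarboxylic acid cycle. At Diff, 25, 32 and 18 of these were tested. In shFto cells 4, 5 and 3 were lower (9.31% of all genes) and 4, 3 and 1 higher (11.9% of all genes). The median log2 fold changes were -0.26, -0.08 and -0.07, against 0.03 over all genes. At MCE 2, 2 and 0 were lower (7.26% of all genes) and 3, 4 and 1 higher (10.5% of all genes). From MCE to Diff 7, 11 and 4 rose in shScram cells (20% of all genes) and 4, 6 and 1 in shFto cells (20.2% of all genes). The acyl-CoA synthetases, which activate fatty acids, went in opposite directions. Acsl1, the main isoform of adipocytes, fell from 61.99 and 68.2 to 16.1 and 19.5 TPM (log2 fold change -1.82, adjusted p = 0.000117), whereas Acsl3 rose from 12.1 and 12.4 to 32.1 and 33.02 TPM (1.34) and Acsl4 from 46.8 and 53.03 to 109.8 and 118 TPM (1.18). Acad12, a further acyl-CoA dehydrogenase gene, fell by 1.13 on the log2 scale. Among peroxisome genes, Pxmp2, a channel protein of the membrane, fell from 5.88 and 4.60 to 0.399 and 0.161 TPM (-2.28), and Ephx2, the soluble epoxide hydrolase, from 38.9 and 41.6 to 11.6 and 9.27 TPM (-1.85). Gstk1, a glutathione transferase of peroxisomes and mitochondria, was at 0 and 0.116 TPM in shScram cells against 14.2 and 12.9 TPM in shFto cells (adjusted p = 1.13e-05), and was listed at 0 in both shScram preadipocyte libraries against 8.19 and 5.90 TPM in shFto preadipocytes. The peroxiredoxin gene Prdx5 also rose (0.94). In the tricarboxylic acid cycle, Idh3a and Suclg2 had the lowest values (-1.004 and -0.66) and Ogdh was higher (0.38).

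RefSeq promoter windows on GRCm38.p6, from 250 bases before to 50 after each start, were found for 26 of the 33 members and searched on both strands for 3 motifs. These were the element bound by PPAR with RXR (a direct repeat of AGGNCA with 1 free base between the copies), the site of oestrogen-related receptors (TCAAGGTCA) and the palindromic NRF1 site (the capitals in the sequence printed here), and overlapping matches were allowed. The first was in the windows of 0 of the 26 members and 0.451% of all genes, the second in 0 and 0.466%, and the third in 1 and 1.07%. With shares this low, counts of 0 or 1 among 26 members cannot tell the members from all genes. Sites outside the windows or with other letters were not searched, so whether the members have such elements was not tested. The match was in the window of Etfdh, which takes part in passing on electrons from the acyl-CoA dehydrogenases. The stretch lies at chr3:79628877-79628904, read on the minus strand, with the motif starting 128 bases before the RefSeq start. In the GENCODE annotation used for gene positions, Etfdh spans chr3:79603788-79629500, so there the stretch lies inside the gene.
Etfdh: gcttctaggGCGCATGCGCacacgcgag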

How the data were processed

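The table deposited by the authors gives TPM of Ensembl genes in 12 libraries, quantified by StringTie 2.1.4 after alignment of the paired reads to GRCm38 (HISAT2 2.1.0) and trimming (Trim Galore 0.6.5). The strand setting is not given in the sources used here. Each column was assigned to its group by the sample title. The values sum to nearly the same total in every library and keep no depth, so no count model was used, and precision rests on the 2 libraries of each group. A mean over all 6 groups was fitted with limma 3.58.1 (R 4.3.3) to log2(TPM + 1), with moderated variances and a mean-variance trend, for 15968 genes of at least 1 TPM in at least 2 libraries. P-values were adjusted by Benjamini-Hochberg over these genes. Because of the pseudocount of 1, fold changes of low genes are understated. Gene positions were taken from the GENCODE M21 annotation of GRCm38.

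The members and lists were chosen with earlier results of these data known. All members could be named with their levels. Full statistics were given for members called with over 2-fold change in any comparison and for the 2 highest and 2 lowest called between the lines at each stage. From the other lists, the 2 highest and 2 lowest called were eligible. Alternatives were another pseudocount (0.1), no filter or a mean of at least 5 TPM, median-ratio scaling, a fit of only the libraries compared, no trend, the replicate number as a block, the fold rule of the study, and each library left out. The fits were tested on simulated data for the comparison between the lines at Diff only. The simulated spread was taken without the shScram preadipocyte libraries, so the effect of their gap on the counts was not covered.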

Additional observations from a re-analysis of the deposited data

Results flagged for a closer look

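Cpt1a, Hadhb and Cat changed differently from MCE to Diff in the lines, by the limma test of the difference itself. For Cat, whose product removes hydrogen peroxide in peroxisomes, the change in shFto cells minus that in shScram cells was -1.97 on the log2 scale (1.78 in shScram, -0.19 in shFto, adjusted p = 0.00246). For Cpt1a, the entry step of long-chain fatty acids into mitochondria, the difference was -1.26 (0.91 in shScram, -0.35 in shFto, adjusted p = 0.00347). For Hadhb, the thiolase subunit of the trifunctional protein, it was -0.79 (0.50 in shScram, -0.30 in shFto, adjusted p = 0.0433), and this call was lost in 13 of 19 alternative settings, among them each library left out other than those of shScram preadipocytes. In all 3 genes both shFto libraries at Diff lay below both at MCE, while both shScram libraries lay above.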

How the results depend on the processing

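Counts of members called, given as higher and lower, changed by over 1.5 times in the cases below, and the cause was not tested. Shares of all genes called higher and lower in the same setting stand in brackets. In the fit of the libraries compared alone they were 0 and 0 (0% and 0%) between the lines at Pre. They were 4 and 10 at MCE (22.9% and 14.1%) and 2 and 23 at Diff (23.1% and 18.4%). From Pre to MCE they were 0 and 0 in shScram (1.24% and 1.92%) and 9 and 8 in shFto (15.5% and 34.6%). From MCE to Diff in shFto they were 10 and 7 (36.3% and 18.1%). For the late change between lines they were 0 and 11 (7.92% and 8.95%). At an unadjusted p under 0.05 limma gave 0 and 2 at Pre (9.74% and 7.73%) in this fit. From Pre to MCE in shScram it gave 6 and 1 (7.88% and 18.8%). With median-ratio scaling the counts between the lines were 3 and 3 at Pre (15.7% and 13.9%) and 1 and 8 at MCE (9.84% and 8.91%). From Pre to MCE they were 16 and 1 in shScram (20.2% and 17.7%) and 10 and 2 in shFto (14.3% and 14.1%). From MCE to Diff they were 7 and 0 in shScram (11.7% and 11.2%) and 2 and 5 in shFto (15.2% and 12.8%). A further rule was a fold over 2 or under 0.5 at an unadjusted limma p under 0.05. By this rule the counts between the lines were 3 and 0 at Pre (10.6% and 4.4%). They were 1 and 1 at MCE (5.05% and 3.96%) and 0 and 3 at Diff (6.73% and 4.23%). From Pre to MCE they were 5 and 0 in shScram (7.76% and 11.9%) and 1 and 0 in shFto (4.73% and 11.3%). From MCE to Diff they were 4 and 0 in shScram (9.32% and 2.82%) and 2 and 0 in shFto (11.8% and 2.15%). Without the filter the counts between the lines were 3 and 3 at Pre (5.48% and 4.48%) and 1 and 12 at Diff (6.12% and 5.15%). With a mean TPM of at least 5 they were 1 and 12 between the lines at Diff (11.9% and 9.04%). From Pre to MCE in shFto they were then 3 and 1 (10% and 19.6%). Without the trend they were 6 and 0 from MCE to Diff in shFto (20.4% and 6.19%). The pseudocount of 0.1 moved no count by over 1.5 times.

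With 1 library left out at a time the counts ranged over 0 to 16 and 0 to 9 between the lines at Pre, 1 to 5 and 1 to 13 between the lines at MCE, 0 to 3 and 6 to 24 between the lines at Diff, 6 to 17 and 0 to 5 from Pre to MCE in shScram, 6 to 22 and 0 to 0 from MCE to Diff in shScram, 2 to 9 and 0 to 9 from Pre to MCE in shFto, 2 to 9 and 0 to 5 from MCE to Diff in shFto and 0 to 0 and 2 to 11 for the late change between lines. The shares of all genes called also moved with the library left out, so these ranges do not describe the members alone. In each such fit the library left alone was assumed to vary like the others.

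Replicate numbers do not pair the samples. Deviations of same-numbered libraries correlated at -0.29 to 0.17 over 15 pairs of groups, with 2 over 0.1. With the replicate number as a block, counts were 2 and 3 between the lines at Pre (13.7% and 10.2% of all genes). From MCE to Diff in shFto they were 6 and 0 (18.6% and 5.67% of all genes). Between the lines at Diff 12 members were lower (8.13% of all genes), the same count as without the block.

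For the 66 calls of single members, 975 of 1250 repeats under an alternative kept direction and call, 275 lost the call and 0 changed direction. TPM keeps no depth, so counting error is unknown and low levels such as those of Abcd2 carry an unknown error.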
